A study of Micromonas commoda with 15 samples.

Results

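The comparison of ZnO particles with control cultures covers 6 of the 15 libraries of the series, 3 from each side, chosen by the treatment in their titles. The organism was Micromonas commoda, strain Noum17/RCC299, grown in L1 medium at 20 °C in a light and dark cycle. Exposed cultures received engineered ZnO particles, for which the labels give 1e-05 M and 0.8 mg/L of zinc, a day after flasks of 140 ml had been set up in early exponential phase. For control cultures the labels name no addition. Cells from 100 ml were collected 48 h later, and poly(A)-selected RNA was sequenced. The molar and the mass value do not describe the same amount of zinc, and the mass lies nearer to that of the oxide, so which one is meant is not settled. Other cultures, used here only where stated, received Fe2O3 particles (3e-05 M, 2.4 mg/L of iron) or the equivalent metal as FeCl3 or ZnSO4. For iron, too, the molar and the mass value do not describe the same amount. The labels do not say whether replicates were separate flasks. The p-values measure the spread between libraries of the same group, pooled over all 5 groups of the series, and that spread may in part be technical.

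Micromonas is a tiny unicellular green alga of the marine plankton, an early branching relative of land plants that carries out photosynthesis in open and coastal waters. Zinc is a cofactor of many algal enzymes and becomes toxic in excess. ZnO particles dissolve in part in water, so cultures given particles meet both solid oxide and zinc ions, and ZnSO4 supplies the ion alone. Because all RNA came from bulk cultures, every value is a share of the messenger RNA pool, and fewer cells and less RNA per cell cannot be told apart.

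The counts are listed for 10300 gene models, that is, predicted transcripts of the genome, and 10012 passed the filter on low counts. Total counts of the 6 libraries lay between 33473041 and 45657254. The files give identifiers without gene names, and 0 of them matched the locus tags or accessions of the RefSeq gene table for this strain. The results below are therefore ordered by the size and direction of change and by abundance, and nothing is said of function. Only 2 models that rose and 2 that fell are named by identifier.

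After ZnO particles 6384 models (63.8%) differed from control in edgeR's quasi-likelihood test at a Benjamini-Hochberg adjusted p under 0.05. Of these, 3012 (30.1% of those tested) were higher and 3372 (33.7%) lower. The direction of that split depends on the scaling between libraries. TMM, which trims the most changed models before it sets libraries level and is used for the values in this text, gave 47.2% of the calls to the higher side, whereas scaling by total count alone gave 4179 higher and 1971 lower models and moved the median log2 fold change over all models from -0.04 to 0.34. Under 4 scalings (TMM over all 15 libraries, TMM over the 6 compared, DESeq2 size factors, total counts) the models called in the same direction each time numbered 2971 higher and 1968 lower. No model was called in opposite directions by TMM and by total counts. Such a call would need a clear fall under TMM and a clear rise by total counts, while the median moved only from -0.04 to 0.34. The interval around a fold change under TMM reached a median of 0.40 to either side on the log2 scale. Opposite calls could thus hardly arise, and their absence does not show the directions to be firm. The 2971 are nearly all of the 3012 rises, and the 1968 are fewer than the falls by a wide margin. The median log2 fold changes under the 4 scalings, in the order given, were -0.04, 0.05, -0.003 and 0.34. Each alternative to TMM over all 15 libraries thus moved models upward, which keeps calls of rises and drops calls of falls. The unequal losses reflect this choice of scalings and do not show the rises to be firmer. The majority also turned, to 3001 to 3432 higher and 2711 to 3148 lower models, when any 1 library of ZnO particles or ZnSO4, Fe2O3 particles replicate 3 or FeCl3 replicate 1 was left out. With all 15 libraries kept and each in turn as the reference of TMM (chosen after seeing the data), 4 references gave more lower than higher models and 11 the reverse.

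Many of these changes were small. Among the called models 1213 had a fitted change below 1.5-fold. A test against a minimum change of 2-fold (edgeR's glmTreat, same adjustment) was passed by 991 higher models (9.9%) and 888 lower ones (8.87%). Each of them lay outside the range of the opposite group in every library. Very large changes leaned upward: 160 called models were fitted at 8-fold or more above control and 83 at 8-fold or more below, and at 16-fold the counts were 33 and 4. No minimum level was set for these counts. A model near 0 in controls can rise by a large fold and has little room to fall, so the lean describes these counts only. At the other end, 1706 models had a 95% interval of the fold change that lay wholly within 1.5-fold of control in both directions. Another 2039 models were neither called nor held within that range, so for them the data set no firm limit. The median half-width of the interval was 0.40 on the log2 scale.

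Read without a model, the ranges of the 3 exposed and 3 control libraries did not overlap for 3301 models on the higher side (33%) and 3598 on the lower side (35.9%). Of these models 6233 were also called, and 151 called models overlapped. The calls rest on these same libraries, so the next counts describe how evenly the exposed libraries share them and test nothing. Among the 3012 higher models 2980 lay above every control in replicate 1, 2986 in replicate 2 and 2996 in replicate 3. Among the 3372 lower ones 3342, 3337 and 3348 lay below every control.

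**Figure D1:**
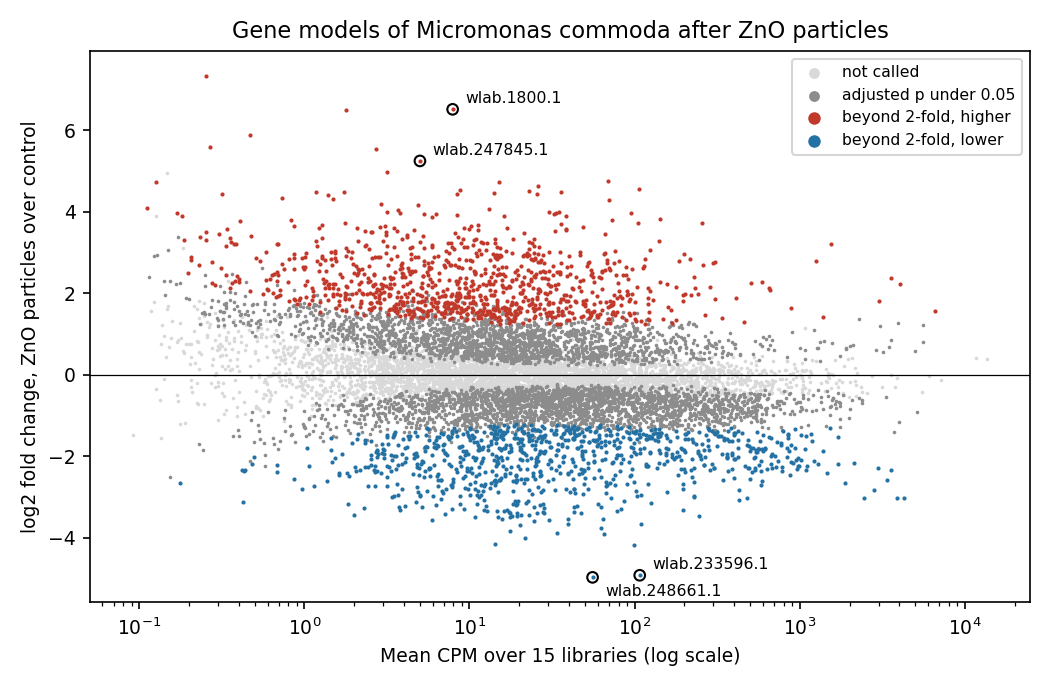
Each point is 1 of 10012 gene models, with mean CPM (reads per library scaled to a common total) over 15 libraries on a log scale across and the log2 fold change of ZnO particles over control upward. The 991 models beyond 2-fold on the higher side reach down to the lowest abundances, and the 888 on the lower side are seen mainly at and above the middle of the range; circles mark the 4 printed models.

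The steepest rises started from transcripts that were close to absent in control cultures. The model wlab.1800.1 had 6, 6 and 8 reads in the 3 control libraries and 684, 775 and 969 after ZnO particles. As CPM (counts scaled to library size, here after TMM) these were 0.186, 0.170 and 0.288 against 17.5, 19.7 and 21.1, with no overlap. It changed by 6.51 on the log2 scale (standard error, SE, 0.329), a 91.2-fold rise, with edgeR quasi-likelihood adjusted p = 4.65e-10. The model wlab.247845.1 came next, with 7, 11 and 15 control reads and 547, 551 and 550 exposed reads. Its levels were 0.216, 0.312 and 0.540 CPM against 14, 14 and 12 CPM, so the exposed libraries were again all far above the controls. It changed by 5.25 on the log2 scale (SE 0.267), a 37.9-fold rise, with edgeR quasi-likelihood adjusted p = 4.82e-10. The control reads behind both folds are few, and the folds are less exact than the rise itself: without any 1 library they ran from 6.36 to 6.75 and from 4.99 to 5.63 on the log2 scale. Another 5 called models rose more than wlab.247845.1 but averaged under 5 CPM over the 6 libraries and were not ranked.

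The next 18 models in that ranking rose between 15.4-fold and 27.2-fold, with a median of 21.6-fold and a largest edgeR quasi-likelihood adjusted p = 8.09e-07. Their control means ran from 0.677 to 12.9 CPM and their exposed means from 12.3 to 201.1 CPM. The median of these 18 stood at 2.5 CPM in control cultures and 50.4 CPM after ZnO particles, on either side of the median of all models tested, 18.8 and 18.9 CPM.

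A wider group was nearly silent in control cultures. In every control library 626 models stayed under 1 CPM, and 386 of them were called higher and 10 lower after ZnO particles, where 30.1% and 33.7% of all models tested were. Some of these had passed the filter only because other groups expressed them, a model near 0 has little room to fall, and the set was cut by control values that enter the comparison, so the counts describe it only. Of the 179 that had at least 10 reads in each control library, 109 were called higher and 8 lower. A stricter set of 20 models went from under 1 CPM in every control to at least 5 CPM in every exposed library, with log2 fold changes between 2.97 and 6.51 and exposed means between 5.38 and 19.5 CPM. The reverse, from at least 5 CPM in every control to under 1 CPM in every exposed library, was seen for 2 models. These sets were cut from the same values, so their folds describe them and test nothing. In the other exposures the 20 models had median levels of 6.43 CPM with Fe2O3 particles, 4.2 CPM with ZnSO4 and 1.55 CPM with FeCl3, beside 7.51 CPM with ZnO particles and 0.619 CPM in controls.

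On the lower side the same ranking gave transcripts that were well expressed in control cultures, as a large fall with a mean of at least 5 CPM requires. The model wlab.248661.1 stood at 184, 192 and 286 CPM in the controls and at 6.82, 6.54 and 7.77 CPM after ZnO particles. The groups were far apart, and control replicate 3 was the highest. It changed by -4.97 on the log2 scale (SE 0.286), with edgeR quasi-likelihood adjusted p = 1.20e-09. The model wlab.233596.1 went from 427, 337 and 484 CPM to 12.8, 13.8 and 14.6 CPM, again without overlap. It changed by -4.92 on the log2 scale (SE 0.289), with edgeR quasi-likelihood adjusted p = 1.46e-09. Neither was lost altogether, since the exposed libraries still held 257 to 356 reads of wlab.248661.1 and 501 to 670 of wlab.233596.1. No called model under 5 CPM fell by more than these.

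The next 18 models fell between 11.2-fold and 18.1-fold, with a median of 12.6-fold. Their control means ran from 16.1 to 296.03 CPM, with a median of 77.7 CPM, and their exposed means from 1.36 to 23.6 CPM, with a median of 6.12 CPM. Over all models beyond 2-fold the levels can be set side by side. Those on the higher side had a median of 3.11 CPM in controls and 14.9 CPM after ZnO particles, and those on the lower side a median of 58.2 CPM in controls and 13.9 CPM after exposure. The sets were split by the direction of change itself, which favours low control levels on the one side and high ones on the other.

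**Figure D2:**
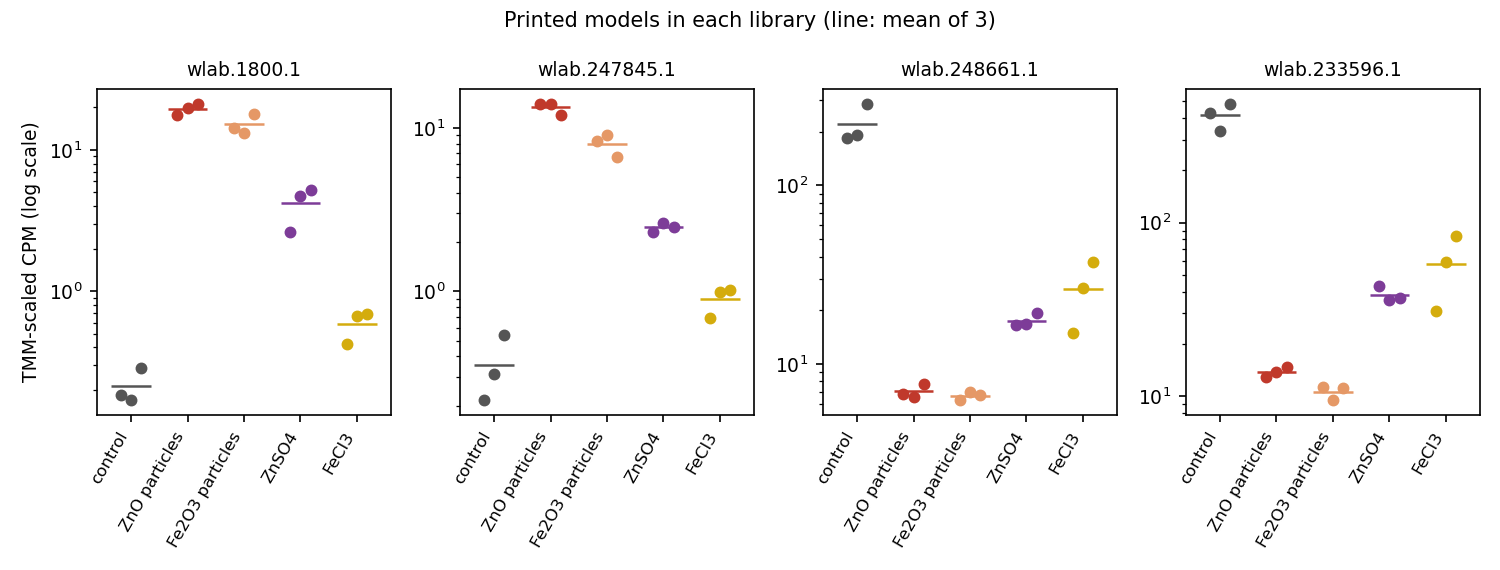
The 4 printed models, 1 panel each, show TMM-scaled CPM on a log axis for every library of the 5 groups, with a line at each group mean of 3. The ZnO particle libraries sit at 17.5 to 21.1 CPM for wlab.1800.1 and at 6.54 to 7.77 CPM for wlab.248661.1, in both panels beside those with Fe2O3 particles and away from the controls.

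Under TMM, direction went with class of abundance. Models were sorted by mean CPM over all 15 libraries. Of the 496 models under 1 CPM, 38.9% were higher and 8.67% lower, and of the 2881 between 1 and 10 CPM 38.1% were higher and 21.7% lower. A model under 1 CPM could pass the filter through 1 group alone and has little room to fall. Rises were thus favoured in the lowest class, and its percentages describe it only. The 4767 models between 10 and 100 CPM were more even, with 30.3% higher and 37% lower. Above that the balance lay on the other side: 14.4% higher and 51.1% lower among 1701 models between 100 and 1000 CPM, and 19.2% and 41.9% among 167 models over 1000 CPM. The median log2 fold change of the classes ran 0.92, 0.27, -0.07, -0.46 and -0.33. Under all 4 scalings together the calls were 32.5% higher and 4.64% lower in the first class, 37.8% and 11.6% in the second, 30.3% and 20.9% in the third, 14.4% and 33.6% in the fourth and 19.2% and 26.3% in the last. TMM over all 15 libraries had the lowest median of the 4, so here too falls were the side that could drop out. With total counts alone the majority turned in the third class, to 2076 higher and 997 lower models, and in the last, to 63 and 44. The fourth class kept more falls, 571 against 475. Fitting only the groups compared also turned the third class, to 1600 higher and 1528 lower. The spread differs by class as well: the median half-width of the 95% interval was 1.07 on the log2 scale under 1 CPM and 0.33 between 10 and 100 CPM, so small changes of rare transcripts could not be seen.

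**Figure D3:**
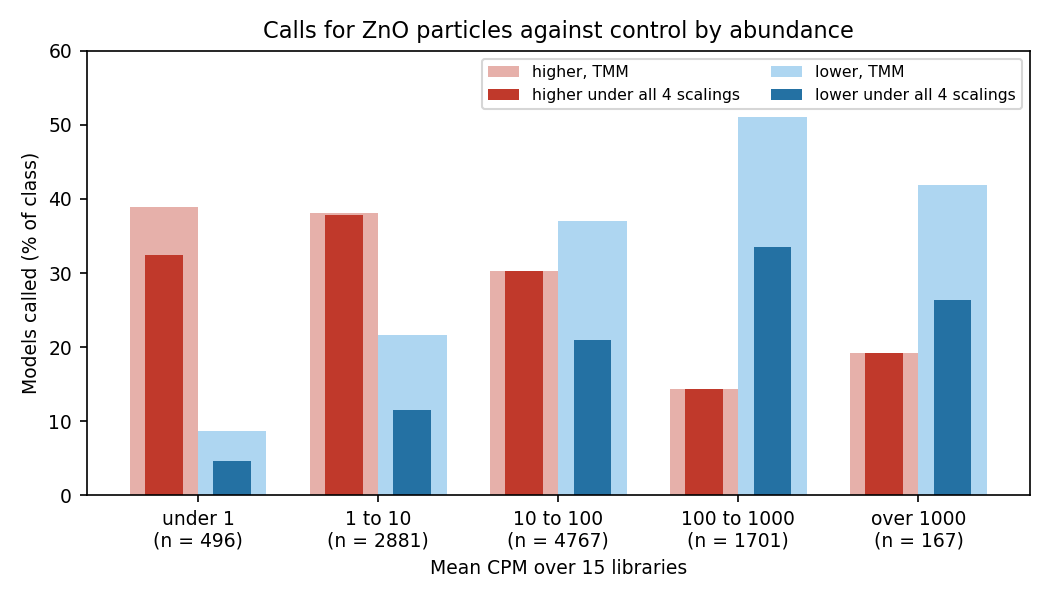
Bars give the percentage of models called higher or lower after ZnO particles in 5 classes of mean CPM, wide pale bars for TMM and narrow dark bars for calls made under all 4 scalings. Rises outnumber falls below 10 CPM and falls outnumber rises above 100 CPM, from 38.9% against 8.67% in the first class to 14.4% against 51.1% in the fourth.

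Some of the leading transcripts of control cultures gave way to others. Shares of library reads are counts divided by the library total. They thus follow the scaling by total counts and not TMM. They are given here as a description, since the lists were chosen by these same shares. Counts are not divided by transcript length, so ranks reflect length as well as abundance. The 10 models with most control reads held 7.54% ± 0.986 (SD, n = 3) of control reads and 5.82% ± 0.038 of reads after ZnO particles. The 10 with most reads after exposure held 9.16% ± 0.137 there and 4.52% ± 0.41 in controls. Only 3 models stood on both lists, and of the first 100 models on each side 66 were shared. Wider lists moved less in proportion to their share, though more in percentage points. The first 100 of controls held 27.6% ± 1.83 of control reads and 24.8% ± 0.506 after exposure. The first 1000 of controls held 72.7% ± 2.21 and 66.4% ± 0.476. The first 100 after exposure held 29.7% ± 0.338 there and 23.5% ± 1.33 in controls. Exact (Clopper-Pearson) 95% intervals for single models were at most 0.00435 percentage points to either side, which covers counting error only.

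Of the 10 leading control models 6 were called lower, 4 were not called and none was called higher, and 5 of the 6 passed the test beyond 2-fold. Over all models tested 33.7% were called lower and 30.1% higher, and a list chosen by its level in one group leans towards change in that direction. The second of them took 1.36%, 0.918% and 0.789% of the reads of the 3 controls and 0.163%, 0.167% and 0.181% after exposure. It dropped to rank 65, with a log2 fold change of -3.01 (SE 0.322, edgeR quasi-likelihood adjusted p = 8.81e-07). The third took 1.24%, 0.827% and 0.72% in controls and 0.146%, 0.153% and 0.166% after exposure, with a log2 fold change of -3.01 as well (SE 0.318). Both stood highest in control replicate 1, and neither came near the control range in an exposed library.

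The leading transcript itself was the same on both sides. It held 1.02%, 1.15% and 1.01% of control reads and 1.81%, 1.76% and 1.85% after ZnO particles. Those shares do not overlap, yet its log2 fold change under TMM was 0.38 (SE 0.182, edgeR quasi-likelihood adjusted p = 0.0823). With total counts as the only scaling it was 0.77, with edgeR quasi-likelihood adjusted p = 8.67e-05. The model at rank 4 in controls, rank 2 after exposure, showed the same: 0.42 under TMM (edgeR quasi-likelihood adjusted p = 0.0768) and 0.82 by total counts, with edgeR quasi-likelihood adjusted p = 0.000104. Whether the leading transcript and the model at rank 4 in controls rose thus turns on the scaling. The TMM factors behind this were 0.708, 0.933 and 0.829 in the controls and 1.08, 1.07 and 1.07 in the exposed libraries.

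Among the 10 leading models after exposure 6 were called higher, 4 were not called and none lower, with the same lean from the choice of the list. The largest gain was at rank 5, which came from rank 122 in controls. It took 0.118%, 0.137% and 0.121% of control reads and 0.796%, 0.742% and 0.755% after exposure, and it changed by 2.22 on the log2 scale (SE 0.169, edgeR quasi-likelihood adjusted p = 2.18e-08). At rank 3, the log2 fold change was 1.56 (SE 0.25). The 6 calls were made by TMM over 15 libraries, TMM over the 6 compared and total counts alike, and total counts added the models at ranks 1, 2 and 8.

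**Figure D4:**
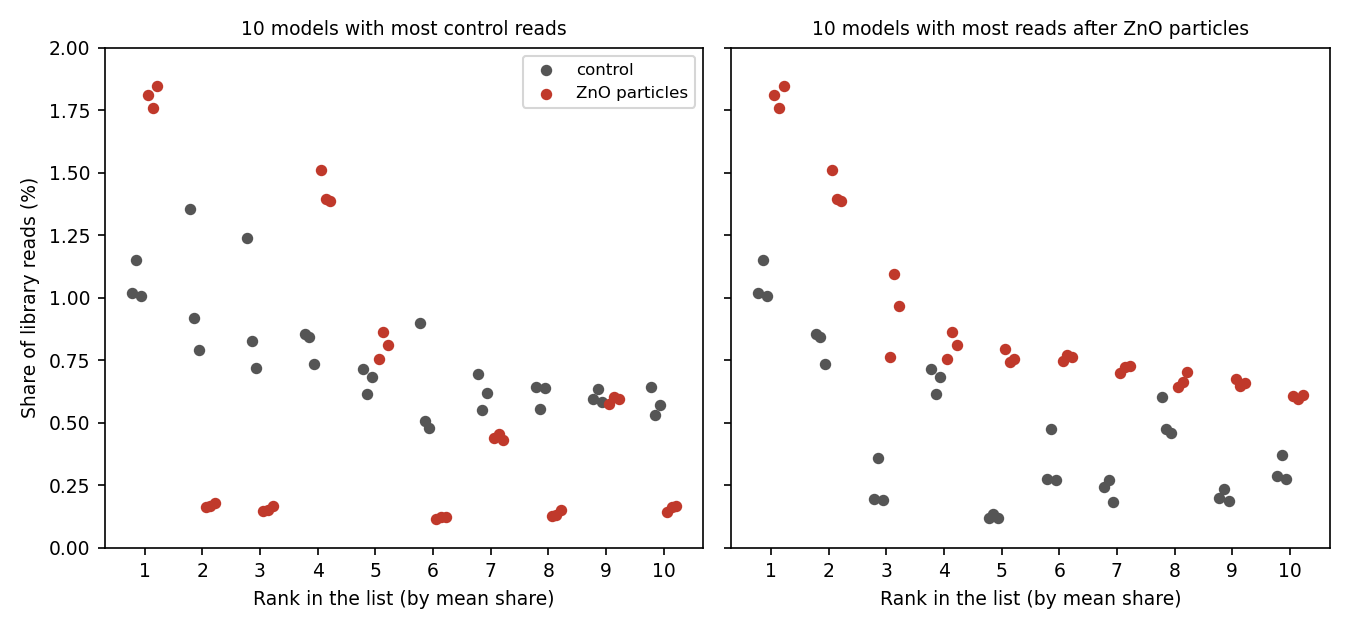
Points give the share of library reads (%) in each of 3 control and 3 ZnO particle libraries, for the 10 models with most control reads (left) and the 10 with most reads after exposure (right), by rank. On the left, ranks 2, 3, 6, 8 and 10 fall to under 0.2% in all exposed libraries; on the right, rank 5 goes from 0.118% to 0.137% in controls to 0.742% to 0.796%.

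In sum of reads, the called models describe how far the pool turned over. Models called lower held 58.8% ± 1.5 (SD, n = 3) of control reads and 34.4% ± 0.545 after ZnO particles. Those called higher held 9.62% ± 1.27 and 25.9% ± 0.0943. The 888 models beyond 2-fold on the lower side went from 23.4% ± 0.567 to 7.27% ± 0.283, and the 991 on the higher side from 1.5% ± 0.234 to 7.94% ± 0.0671. Models that were not called held 31.6% ± 0.451 of control reads and 39.7% ± 0.452 of exposed reads, a gain in share that TMM does not count as change. These sets were picked by the comparison itself, so the shares give its extent in reads and no support for it.

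The exposed cultures were much more alike than the controls. Over the 7906 models that averaged 5 CPM or more, the median absolute difference in log2 CPM between 2 exposed libraries was 0.0968 to 0.116. Between 2 control libraries it was 0.231 to 0.361, and between an exposed and a control library 0.549 to 0.75. A difference of more than 2-fold was found for 0.0126% to 0.607% of models between exposed libraries, for 1.76% to 3.9% between controls and for 27.1% to 37.6% across the groups. The SD over 3 libraries was smaller after ZnO particles than in controls for 6756 models (85.5%). Its median was 0.094 on the log2 scale with ZnO particles, 0.246 in controls, and 0.209, 0.187 and 0.148 with Fe2O3 particles, FeCl3 and ZnSO4. Models are not independent replicates, so no test is given for this difference in spread.

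The controls differed among themselves. Control replicate 1 had the lowest TMM factor and the largest distances to the exposed libraries, 0.727 to 0.75. Within the controls, replicates 1 and 3 were the closest pair, at 0.231, and replicate 2 lay at 0.361 from replicate 1 and 0.287 from replicate 3. The level of the 100 leading control models in replicate 1 was above the control mean by a median of 0.3 on the log2 scale, where control replicate 2 was below it, at -0.28. Without control replicate 1 the calls were 2697 higher and 3112 lower, with 877 and 827 beyond 2-fold. The log2 fold changes of the printed models were then 6.43 for wlab.1800.1, 4.99 for wlab.247845.1, -5.08 for wlab.248661.1 and -4.90 for wlab.233596.1. A fit that gave each group its own spread (limma voom with group weights, chosen after seeing the data) called 3041 higher and 3365 lower.

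**Figure D5:**
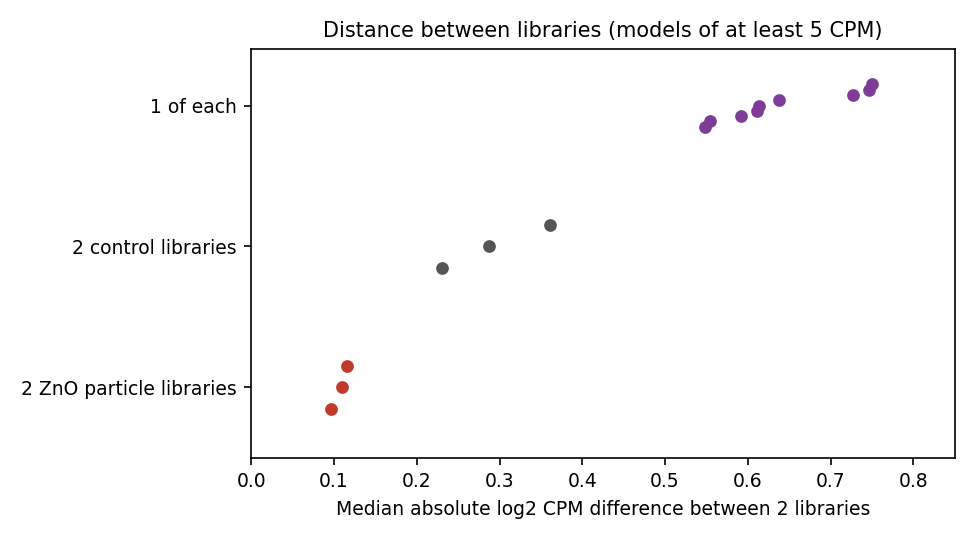
Each point is a pair of libraries, placed by the median absolute log2 CPM difference over 7906 models. Pairs of ZnO particle libraries lie at 0.0968 to 0.116, pairs of controls at 0.231 to 0.361 and pairs across the groups at 0.549 to 0.75.

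To show what set ZnO particles apart, the exposed cultures were tested directly against those with the zinc salt and those with the iron particle. Against ZnSO4 4308 models (43%) differed, 2261 of them higher (22.6%) and 2047 lower (20.4%) with the particles. The minimum change of 2-fold was passed by 196 higher and 297 lower models. Against Fe2O3 particles 1922 models (19.2%) differed, 750 higher (7.49%) and 1172 lower (11.7%), and 2 higher and 19 lower passed the minimum change of 2-fold. The labels match ZnSO4 to the particle in zinc, while the doses of zinc and iron are unlike, so the second contrast is not matched for dose. Total counts as the only scaling turned the first split to 1287 higher and 2768 lower and the second to 1795 higher and 593 lower. Single libraries mattered as well. When FeCl3 replicate 1, Fe2O3 particles replicate 3 or a single library of either zinc group was left out, the first contrast had 1296 to 1833 higher and 2164 to 2910 lower models. The second had 566 to 756 lower models without Fe2O3 particles replicate 3 or any 1 ZnO particle library, 478 higher ones without ZnO particles replicate 2, and 1180 higher and 1090 lower without FeCl3 replicate 1.

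The printed and ranked models were chosen by their values in the ZnO particle libraries, which enter the tests against the other exposures too, so calls against ZnSO4 are favoured by the choice and describe these models. With ZnSO4 the model wlab.1800.1 reached 2.62, 4.7 and 5.21 CPM, above every control and below every ZnO particle library. Its log2 difference between ZnO particles and ZnSO4 was 2.22 (SE 0.23, edgeR quasi-likelihood adjusted p = 3.61e-06). The model wlab.247845.1 stood at 2.32, 2.61 and 2.48 CPM with ZnSO4, and its log2 difference was 2.43 (SE 0.209, edgeR quasi-likelihood adjusted p = 8.98e-07). Both fallers were lower with the particles than with the salt, wlab.248661.1 by a log2 difference of -1.31 (SE 0.252) and wlab.233596.1 by -1.48 (SE 0.253), with edgeR quasi-likelihood adjusted p = 0.000673 and 0.000261. Of the 18 models that followed in rank on the higher side, 17 were called higher with ZnO particles than with ZnSO4 and the median log2 difference was 1.5. All 18 on the lower side were called lower, with a median of -2.26.

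Against Fe2O3 particles the same models were called about as often as the 19.2% of all models. The log2 difference of wlab.1800.1 was 0.37, with a 95% interval from -0.10 to 0.83, that of wlab.248661.1 0.08 (-0.46 to 0.62) and that of wlab.233596.1 0.37 (-0.16 to 0.91). The model wlab.247845.1 was the exception: at 8.29, 9.02 and 6.67 CPM with Fe2O3 particles it was below every ZnO particle library, with a log2 difference of 0.74 (SE 0.197, edgeR quasi-likelihood adjusted p = 0.0157). Without ZnO particles replicate 2 that difference was 0.77 and no longer called (edgeR quasi-likelihood adjusted p = 0.0521). Of the next 18 on the higher side 2 were called lower with ZnO than with Fe2O3 particles and none higher. On the lower side 3 were called higher and 1 lower.

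Over the wider sets, 807 of the 888 models beyond 2-fold on the lower side were called lower with ZnO particles than with ZnSO4, and none higher, with a median log2 difference of -1.06. Of the 991 on the higher side 395 were called higher than with ZnSO4, 68 lower and 528 neither, with a median of 0.37. The median over all models was 0.01. Both sets were chosen by the values of the ZnO particle libraries, which enter these differences too, so the counts describe the sets and do not test them. Set side by side against the same 3 controls, the median difference in log2 CPM of the higher set was 2.13 with ZnO particles, 2.12 with Fe2O3 particles, 1.71 with ZnSO4 and 0.78 with FeCl3. For the lower set the medians were -1.96, -2.07, -0.93 and -0.89. Over all models they were -0.02, 0.03, -0.21 and 0.03. The direct difference between ZnO particles and ZnSO4 had a median of 0.01 over all models. The -0.21 is thus not taken as an offset common to all ZnSO4 values. All 4 exposures share those controls, so the likeness of such values is partly built in.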

How the data were processed

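The authors deposited 1 table of whole-number counts per gene model for all 15 libraries, with no normalization visible in the values. The submitters' processing notes name RSEM 1.3.0, STAR, Trim Galore 0.4.0 and CASAVA 2.17. The name of the table speaks of HTSeq, so the counting program is not settled. For genome build and annotation the entry is: not given in the sources used here. There are 3 identifiers that recur, over 6 rows, which were kept apart, and 29 rows are marked as duplicates. None of the models described singly is among these.

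Tests were run with edgeR 4.0.16 under R 4.3.3. filterByExpr (minimum count 10) removed 288 models. All 5 groups entered 1 quasi-likelihood model with TMM scaling and group as the only term. SE was obtained from the size of the log2 fold change over the root of F, and CPM are counts scaled to library size. Log2 CPM used a prior count of 2. The models described singly or in ranked groups were called, did not overlap between the groups and had a mean of at least 5 CPM over the 6 libraries, without a duplicate mark. The leading models by read share and the near-silent sets were chosen after their values were seen. The members, rules and tests were chosen with earlier results of these data known. Planned lists of zinc transport, stress and photosynthesis genes could not be used without names.

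Deviations of same-numbered libraries from their group means gave r of 0.374, 0.11 and 0.106 across models between control and ZnO particles. Between ZnO particles and ZnSO4 r was 0.363, 0.356 and 0.404, but between control and Fe2O3 particles it was 0.644, -0.534 and -0.198. Same-numbered libraries thus did not deviate together steadily over the series, and unlike-numbered ones were not compared. As an alternative, the replicate number was also fitted as a block. The labels do not say what a number stands for. No 2 of the 6 libraries agreed within sampling noise. Alternatives with DESeq2 1.42.0, limma 3.58.1 and other scalings and filters are given at the end. The steps were also run on simulated counts in which only a small part of the models had been changed. That run did not imitate a change in most models, so it does not bear on the dependence on scaling.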

Additional observations from a re-analysis of the deposited data

How the results depend on the processing

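The direction of the split between higher and lower models against control moved with the library that TMM took as its reference. With all 15 libraries kept, the reference of the values reported, Fe2O3 particles replicate 3, gave 3012 higher and 3372 lower, and control replicate 2 gave 3344 and 3000. Over all 15 references, an alternative chosen after seeing the data, the counts ran from 3012 to 3769 higher and from 2584 to 3372 lower. Leaving out each library in turn gave 2697 to 3432 higher and 2711 to 3363 lower; the sets with more higher models were the 8 in which control replicate 2 became the reference. Total counts only gave 1971 lower models, 565 of them beyond 2-fold, and 1287 higher against ZnSO4 and 1795 higher and 593 lower against Fe2O3 particles. A filter at a mean of 5 CPM gave 2152 lower and 563 beyond 2-fold, with fewer models tested, and it moved the median log2 fold change to 0.14. Leaving out each library in turn gave 877 to 1141 higher and 730 to 928 lower models beyond 2-fold. Against ZnSO4 it gave 1296 to 2388 higher and 1943 to 2910 lower, and against Fe2O3 particles 478 to 1180 higher and 566 to 1276 lower. Fitting only the groups compared gave 3236 higher and 2928 lower against control. With the replicate block there were 3066 higher and 3377 lower, and the block changed no call of a printed model and no count by more than 1.5 times. Of 292 values of the 4 printed models under alternatives, 291 kept their direction and their side of the threshold; the exception is given beside its result. DESeq2 called 3253 higher and 3310 lower and limma voom 3057 and 3302.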
